A study of Mus musculus with 10 samples.

Results

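The nuclear genes for the proteins of the mitochondrial ribosome were followed in the livers of starved and fed mice. Members were all gene rows whose symbol begins with Mrpl or Mrps followed by a digit, which gave 76 of 23420 rows. All 76 passed the low-count filter, among 12796 tested genes. The 5 starved libraries came from male C57BL/6 mice aged 4 months that were fasted for 48 hours with water freely available. The 5 fed libraries, titled AL, came from male C57BL/6 mice of the same age kept on standard chow. Their feeding time is given as 48 hours as well. Each library was made from total RNA of whole liver. The series concerns how the metabolic state acts on gene expression through β-hydroxybutyrylation, a histone mark derived from a ketone body. The treatment protocol speaks of 5 pairs of mice, but does not say what makes a pair, whether a replicate number marks one or whether each library is 1 animal, so p-values measure the spread between these libraries.

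Mitochondria carry their own ribosome, which translates the few messages of the mitochondrial genome into core subunits of the respiratory chain and ATP synthase. Its rRNAs are made inside the organelle, but every one of its proteins is encoded in the nucleus, translated in the cytosol and imported. Some of these proteins descend from the bacterial ribosome, whereas others were added in mitochondria. In liver, whose hepatocytes are rich in mitochondria, they are expressed throughout. The sorting into subunits and into proteins with or without a bacterial counterpart follows the structures of the human and pig mitochondrial ribosome. By these structures Mrps18a and Mrps30 belong to the large subunit in spite of their names. Mrps36 is kept by its symbol, although its protein is now assigned to the oxoglutarate dehydrogenase complex. Mrps36 is counted here among the small-subunit proteins that mitochondria added.

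Of the 76 genes, 67 had a promoter entry in RefSeq (GRCm38.p6, the build the files' mm10 corresponds to), covering 250 bases before and 50 bases after the start site, which is base 251 of each window counted from 1. Promoters are shown for 3 genes that were higher in starved liver (Mrpl17, Mrps18b, Mrps26), for Mrps18a, a paralog of Mrps18b that did not pass the test, and for 2 genes that were lower (Mrpl14, Mrpl39). They are chr7:105811038-105811337 on the minus strand for Mrpl17, chr17:35916391-35916690 on the minus strand for Mrps18b and chr2:130563507-130563806 on the plus strand for Mrps26. Mrps18a is at chr17:46110754-46111053 on the plus strand, Mrpl14 at chr17:45686099-45686398 on the plus strand and Mrpl39 at chr16:84735195-84735494 on the minus strand. Capitals mark matches to 5 motifs: GCGCA and GCGC with any 1 base between them for NRF1, CCGGAAG for ETS factors such as GABP, AAGATGGC for YY1, CACGTG for E-box factors such as MYC and TGACGTCA for CREB.
Mrpl17: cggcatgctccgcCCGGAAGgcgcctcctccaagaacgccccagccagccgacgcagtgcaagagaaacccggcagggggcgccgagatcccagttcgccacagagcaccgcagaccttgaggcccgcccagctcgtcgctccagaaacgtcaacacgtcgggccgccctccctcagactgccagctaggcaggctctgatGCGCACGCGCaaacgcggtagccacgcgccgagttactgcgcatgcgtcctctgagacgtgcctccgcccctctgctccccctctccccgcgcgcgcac
Mrps18b: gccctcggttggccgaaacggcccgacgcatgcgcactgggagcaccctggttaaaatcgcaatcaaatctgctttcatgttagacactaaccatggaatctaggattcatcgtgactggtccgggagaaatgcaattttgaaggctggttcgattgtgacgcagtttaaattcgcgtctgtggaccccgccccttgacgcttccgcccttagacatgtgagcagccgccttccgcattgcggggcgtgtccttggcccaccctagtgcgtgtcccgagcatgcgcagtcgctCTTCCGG
Mrps26: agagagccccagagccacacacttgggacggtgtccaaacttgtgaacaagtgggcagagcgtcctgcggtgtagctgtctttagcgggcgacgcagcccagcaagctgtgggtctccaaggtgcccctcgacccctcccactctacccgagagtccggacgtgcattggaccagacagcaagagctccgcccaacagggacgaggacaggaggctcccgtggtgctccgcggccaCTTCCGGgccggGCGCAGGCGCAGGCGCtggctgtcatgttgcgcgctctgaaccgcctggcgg
Mrps18a: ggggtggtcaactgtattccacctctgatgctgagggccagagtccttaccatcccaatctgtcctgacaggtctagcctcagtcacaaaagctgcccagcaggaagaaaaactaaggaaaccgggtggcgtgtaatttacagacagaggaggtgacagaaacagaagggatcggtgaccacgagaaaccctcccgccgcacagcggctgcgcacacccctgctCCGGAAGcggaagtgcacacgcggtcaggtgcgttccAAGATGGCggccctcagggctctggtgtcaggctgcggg
Mrpl14: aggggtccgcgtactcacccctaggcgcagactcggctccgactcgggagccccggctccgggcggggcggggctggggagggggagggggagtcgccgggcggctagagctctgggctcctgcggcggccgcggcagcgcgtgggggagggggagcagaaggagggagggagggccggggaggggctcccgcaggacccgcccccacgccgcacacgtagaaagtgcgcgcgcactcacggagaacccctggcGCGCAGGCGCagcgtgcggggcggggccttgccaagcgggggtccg
Mrpl39: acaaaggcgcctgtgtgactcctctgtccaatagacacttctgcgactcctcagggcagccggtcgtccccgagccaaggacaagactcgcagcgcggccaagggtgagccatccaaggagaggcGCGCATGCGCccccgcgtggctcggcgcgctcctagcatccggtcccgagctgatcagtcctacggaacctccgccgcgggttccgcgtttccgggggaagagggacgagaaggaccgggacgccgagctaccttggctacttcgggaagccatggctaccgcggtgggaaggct

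NRF1, GABP and YY1 are known regulators of nuclear genes for mitochondria. The NRF1 motif, searched on both strands as were the others, was found in 12 of the 67 promoters (17.9%), against 4.78% of 27025 promoters of all genes and 10.4% of the 10008 promoters of genes tested here. The ETS motif was in 23 (34.3%), against 9.12% of all and 18.0% of tested promoters, and the YY1 motif in 12 (17.9%), against 2.88% and 4.74%. The E-box motif was in 5 (7.46%; 7.24% of all, 10.2% of tested) and the CREB motif in 2 (2.99%; 1.88% and 3.12%). In Mrps26 a pair of overlapping NRF1 matches began at bases 249 and 255, across the start site. Each is marked above, but the counts here are of promoters and not of matches. The NRF1 match stood in 3 of 15 promoters of genes that were higher, in 2 of 3 that were lower and in 7 of 49 that did not pass the test, so it occurred in genes of either direction. The ETS match stood in 4 of 15, 0 of 3 and 19 of 49 promoters in the same order, and the YY1 match in 0 of 15, 0 of 3 and 12 of 49. The E-box match stood in 1, 0 and 4 of these promoters and the CREB match in 1, 0 and 1. These matches describe letters in a window and no binding was measured.

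Reads assigned to genes came to 18.2 to 28.1 M per starved library and 23.0 to 29.9 M per fed library. The members took 42930 to 79023 of these reads in starved and 62389 to 78541 in fed libraries, and single members had 58 to 3120 reads in any library. Hepatocyte markers were abundant in every library, as the label of liver implies: the 6 fixed markers summed to 100879 to 161358 CPM (counts per 1000000 reads in genes, after trimmed-mean scaling) in starved and 80977 to 118362 CPM in fed libraries. Of these 6 hepatocyte markers 3 rose and 1 fell. Markers of other cells also moved between the groups. The 6 Kupffer cell markers summed to 116 to 266 CPM in starved and 315 to 525 CPM in fed libraries, and 5 of them fell. The 3 neutrophil markers summed to 2.61 to 22.2 CPM in starved and 1.72 to 3.65 CPM in fed libraries, and 3 rose. The 6 endothelial markers summed to 186 to 237 and 224 to 263 CPM (1 rose, 3 fell) and the 6 stellate cell markers to 436 to 647 and 426 to 495 CPM (1 rose, 1 fell), starved first in each pair. Bile duct markers summed to 2.38 to 6.64 CPM in starved and 3.93 to 5.80 CPM in fed libraries, and lymphocyte markers to 1.02 to 5.46 CPM and 4.71 to 6.22 CPM. No bile duct marker was called, and 1 lymphocyte marker fell. Of the erythroid markers 4 globin rows were listed at 0 in every library and the other fell (8.35 to 25.1 CPM in starved, 26.8 to 44.9 CPM in fed). The part of these cells in the values below was not tested, and in whole liver fewer cells of a type and less RNA per cell cannot be told apart. Within the starved group, library 2 differed from libraries 1, 3 and 5 by a median absolute log2 difference of 0.46 to 0.49 over all tested genes, and library 4 by 0.27 to 0.31. Libraries 1, 3 and 5 differed from each other by 0.13 to 0.21 and the fed libraries by 0.14 to 0.21. Values without starved libraries 2 and 4 are given for the counts of calls, the class and list medians and the named members with a call.

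With all 10 libraries a minority of the mitochondrial ribosomal protein genes was called as changed in starved liver, and fold changes were small. A gene without a call may still have changed. In starved liver 18 of the 76 genes rose and 3 fell (quasi-likelihood test of edgeR, adjusted over the whole table by Benjamini-Hochberg and called at an adjusted p under 0.05). Together these are 27.6% of the members, beside 38.6% of all tested genes. Among all tested genes 18.6% rose and 20.0% fell. The members' share of rises, 23.7%, lay near that background, and their share of falls was 3.95%. Fold changes ran from −0.71 for Mrpl14 to 0.94 for Mrpl17 on the log2 scale. None of the 76 changed by 2-fold in the fit, where 13.2% of all tested genes were called with at least that change. The median log2 fold change (starved over fed) was 0.10 over the members and 0.003 over all tested genes. For 54 of the 55 genes that were not called, the 95% interval lay within a 2-fold change in either direction, the exception being Mrpl49. The groups did not overlap in 16 members, 13 of them higher and 3 lower in starved liver, which is 21.1% of members beside 29.9% of all tested genes.

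**Figure D1:**
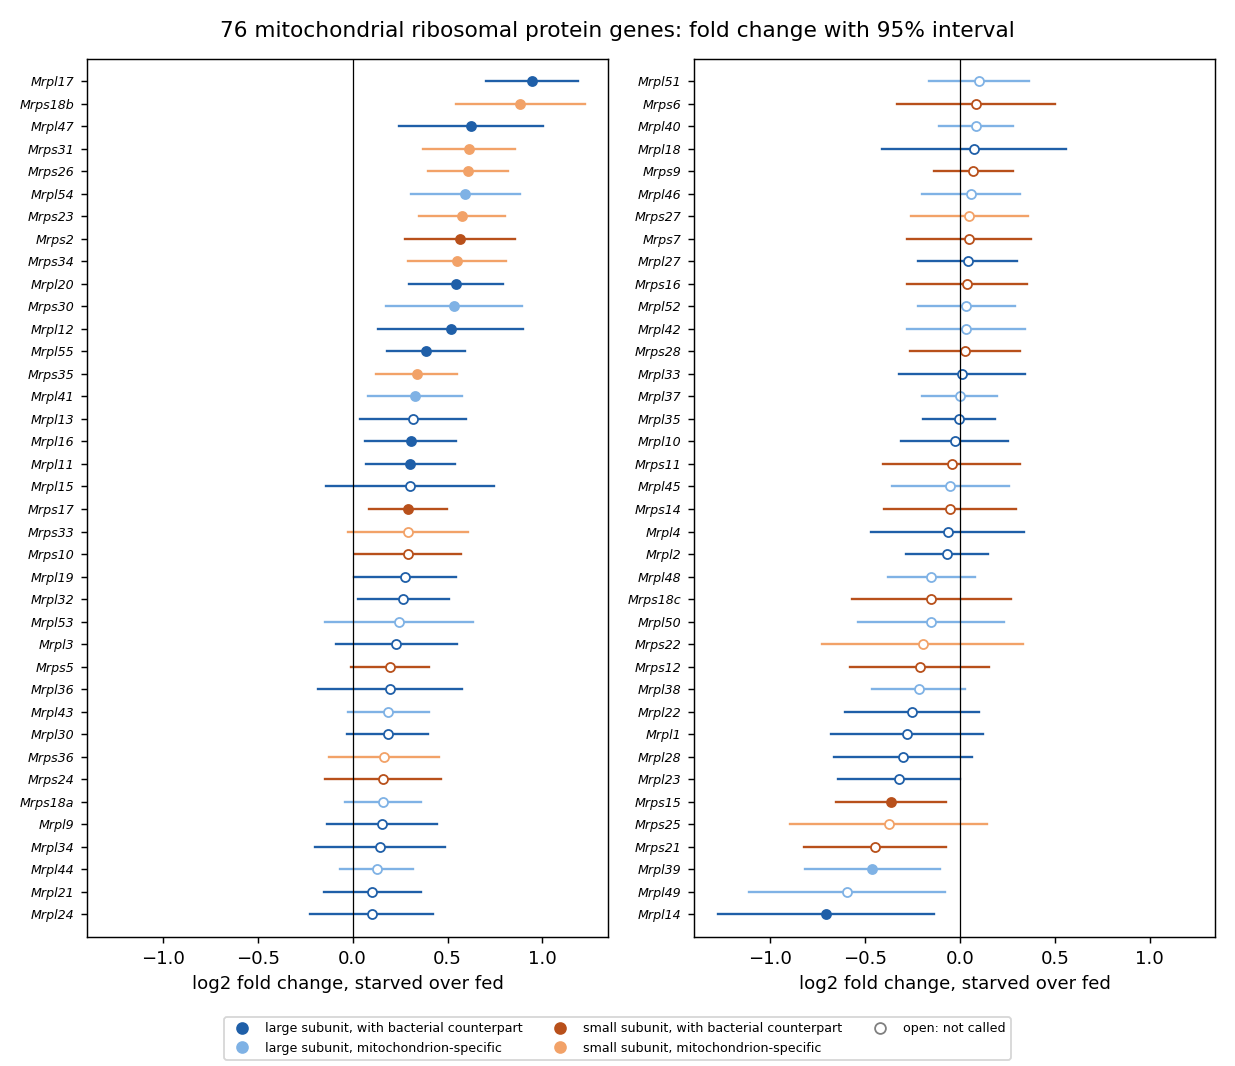
Log2 fold change, starved over fed liver, of each of the 76 genes (points) with its 95% interval from the fit (lines), ordered from highest to lowest and split over 2 panels. Filled points passed the test, open points did not, and colours give the subunit and whether the protein has a bacterial counterpart. The rises end at 0.94 for Mrpl17 and the falls at −0.71 for Mrpl14.

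The split between rises and falls depended on scaling. With library totals alone in place of trimmed-mean scaling, under which the median over all tested genes was −0.15, 9 members rose and 7 fell, so that 56.3% of member calls were rises in place of 85.7%. Over all genes the share of rises among calls moved to 29.9% from 48.2%. The members' median turned to −0.05, which was 0.10 above that of all genes, as with the trimmed mean.

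Mrpl17, a large-subunit protein with a bacterial counterpart that sits near the exit of the peptide tunnel, showed the largest rise. It had 114, 95.2, 109, 113 and 83.5 CPM in starved libraries 1 to 5, against 58.9, 53.4, 56.8, 48.9 and 49.6 CPM in fed libraries 1 to 5. Every starved library was above every fed library, and libraries 2 and 4 were not set apart. The log2 fold change was 0.94 ± 0.11 (SE; adjusted p = 0.000132, edgeR), and 0.95 without starved libraries 2 and 4. The gene lies on chromosome 7 (105803206 to 105811099, minus strand, mm10).

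Other large-subunit proteins with a bacterial counterpart that rose were Mrpl20, Mrpl47 and Mrpl12. Mrpl20, whose bacterial counterpart is an early assembly protein, had 71.1, 60.8, 70.0, 65.7 and 54.5 CPM in starved libraries 1 to 5, against 51.7, 37.8, 46.8, 40.7 and 43.7 CPM in fed libraries. The groups did not overlap, and the log2 fold change was 0.55 ± 0.11 (adjusted p = 0.00335, edgeR; 0.58 without libraries 2 and 4). Mrpl47 had 19.4, 11.8, 21.4, 25.1 and 19.1 CPM in starved libraries, against 12.4, 13.2, 10.7, 13.9 and 12.7 CPM in fed libraries. Starved library 2 lay inside the fed range and the other 4 above it (log2 fold change 0.62 ± 0.17, adjusted p = 0.015, edgeR; 0.69 without libraries 2 and 4). The exons of Mrpl47 overlap those of Actl6a and Ndufb5 on the opposite strand, and with library totals alone its call was lost (0.48, adjusted p = 0.0731). Mrpl12, a stalk protein that also binds the mitochondrial RNA polymerase in human cells, had 55.0, 36.1, 60.0, 47.9 and 43.1 CPM in starved libraries, against 38.8, 27.8, 29.3, 28.5 and 45.0 CPM in fed libraries. Fed libraries 1 and 5 lay inside the starved range. Its rise of 0.52 ± 0.17 (adjusted p = 0.0347, edgeR) was lost without starved library 1, 3 or 4 or fed library 2, 3 or 4, with log2 fold changes of 0.43 to 0.54 and adjusted p = 0.0542 to 0.0861, and also with library totals alone. It was 0.66 without libraries 2 and 4, and called. Exons of Mrpl12 overlap Gm16755 on the opposite strand. Of the 30 genes in this class 7 rose and 1 fell, with a median log2 fold change of 0.15, and of 0.28 without libraries 2 and 4.

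Among the 19 large-subunit proteins that mitochondria added, 3 rose and 1 fell (median 0.06, and 0.15 without starved libraries 2 and 4). Mrpl54 had 35.6, 34.6, 38.4, 38.2 and 28.3 CPM in starved libraries 1 to 5, against 27.6, 18.5, 24.4, 20.6 and 25.1 CPM in fed libraries. Its lowest starved library stood just above the highest fed library (log2 fold change 0.59 ± 0.13, adjusted p = 0.00458, edgeR; 0.58 without libraries 2 and 4). Mrps30, a large-subunit protein by structure, had 22.4, 42.9, 24.8, 30.9 and 24.7 CPM in starved libraries, against 20.9, 21.0, 20.3, 19.8 and 18.5 CPM in fed libraries. All 5 starved libraries were above the fed range, with libraries 2 and 4 the highest. The log2 fold change of 0.53 ± 0.16 (adjusted p = 0.0237, edgeR) came to 0.27 without libraries 2 and 4, still called. It was not called without fed library 4 or 5 (0.50 to 0.53) or with library totals alone (0.36). Its exons overlap B430218F22Rik on the opposite strand.

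The 11 small-subunit proteins that mitochondria added included 6 that rose and none that fell, with a median log2 fold change of 0.34, and of 0.42 without starved libraries 2 and 4. They include Mrps36, kept by its symbol, which was not called (log2 fold change 0.16). Against 18.6% of all tested genes, 54.5% of this class rose, but no test compares the class with other genes, and 11 genes are few. Mrps18b rose the most. It had 36.1, 49.3, 32.0, 49.6 and 29.8 CPM in starved libraries 1 to 5, against 20.4, 21.1, 23.9, 19.5 and 21.7 CPM in fed libraries. No starved library fell into the fed range, and libraries 2 and 4 were the highest. The log2 fold change was 0.88 ± 0.15 (adjusted p = 0.00125, edgeR) and 0.64 without libraries 2 and 4. Exons of Mrps18b (chromosome 17, 35910379 to 35916389, minus strand, mm10) overlap Gm16279 on the opposite strand.

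Mrps31, of the head of the small subunit, had 54.6, 60.6, 49.6, 67.5 and 53.4 CPM in starved libraries 1 to 5, against 34.3, 41.9, 39.2, 38.5 and 33.0 CPM in fed libraries. The groups were apart (log2 fold change 0.61 ± 0.11, adjusted p = 0.00157, edgeR; 0.51 without libraries 2 and 4). Mrps26 had 32.4, 35.6, 29.7, 31.2 and 29.1 CPM in starved libraries, against 22.9, 19.0, 20.9, 19.8 and 21.2 CPM in fed libraries. Its spread within a group was small, with an SD of 2.58 CPM in starved and 1.49 CPM in fed liver (log2 fold change 0.61 ± 0.10, adjusted p = 0.000718, edgeR; 0.57 without libraries 2 and 4). It overlaps 4930473A02Rik on the opposite strand. Mrps23 had 40.7, 46.6, 38.3, 42.6 and 34.5 CPM in starved libraries, against 29.4, 25.8, 25.1, 26.9 and 28.8 CPM in fed libraries, again without overlap (0.58 ± 0.10, adjusted p = 0.00142, edgeR; 0.50 without libraries 2 and 4). Mrps34, mutated in human mitochondrial disease, had 34.5, 23.8, 31.3, 27.0 and 24.6 CPM in starved libraries, against 20.1, 19.0, 19.9, 18.0 and 19.6 CPM in fed libraries. Here starved library 2 was the lowest of its group but still above the fed range (0.55 ± 0.12, adjusted p = 0.00375, edgeR; 0.67 without libraries 2 and 4). Mrps34 shares exon positions with Nme3 on the same strand and Mapk8ip3 on the other. Mrps35 was the other gene of this class that rose.

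Small-subunit proteins with a bacterial counterpart numbered 16, of which 2 rose and 1 fell (median 0.04, and 0.20 without starved libraries 2 and 4). Mrps2 had 33.8, 50.2, 36.5, 47.7 and 37.7 CPM in starved libraries 1 to 5, against 28.0, 31.7, 26.2, 29.4 and 23.9 CPM in fed libraries. Libraries 2 and 4 were again the highest of the starved group, and no starved library reached down to the fed range. The log2 fold change was 0.56 ± 0.13 (adjusted p = 0.00635, edgeR) and 0.39 without these libraries. The remaining rises, chosen outside the rule for named genes, were those of Mrpl55, Mrps35, Mrpl41, Mrpl16, Mrpl11 and Mrps17, with log2 fold changes of 0.29 to 0.39. Mrpl55 and Mrps35 kept their call in 18 of 19 alternative settings and lost it with library totals alone. Mrpl41 and Mrpl16 kept it in 9 of 19, and Mrpl11 and Mrps17 in 10 of 19. The calls of these 4 were lost with library totals alone, without a low-count filter, with a replicate block and without single libraries of either group.

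**Figure D2:**
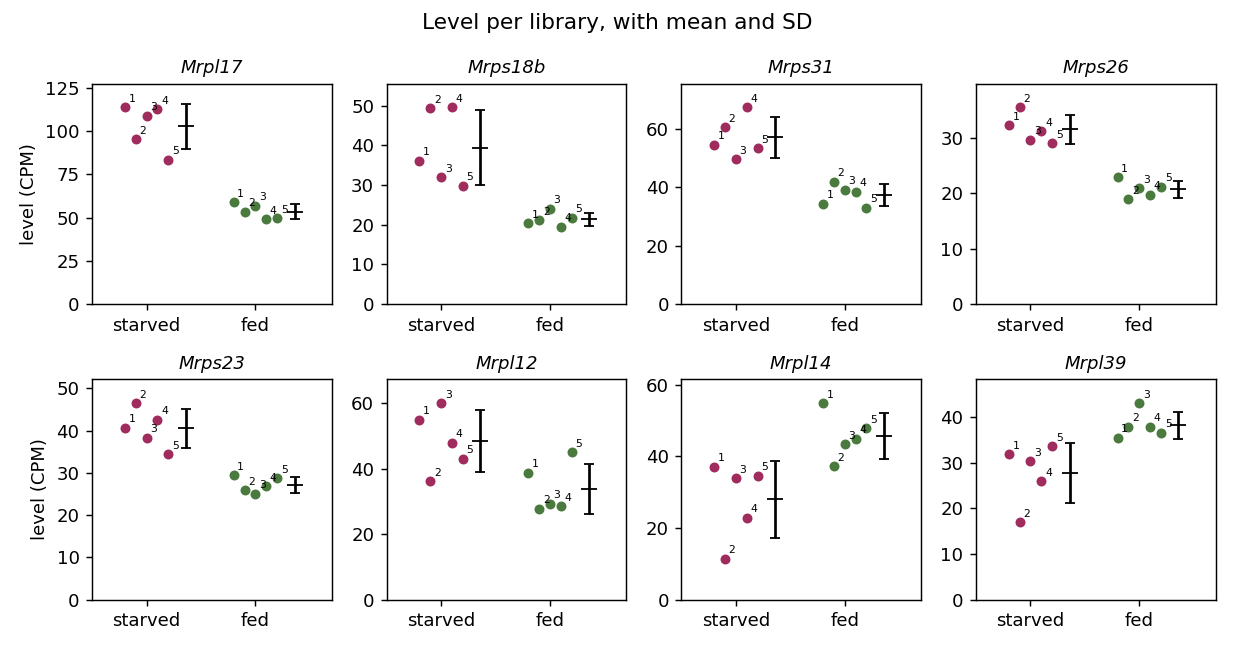
Level in CPM of 8 genes in each library (points, numbered by library) with the mean and SD of the 5 libraries beside them, starved left and fed right. In Mrpl17, Mrps18b, Mrps31, Mrps26 and Mrps23 the starved libraries all lie above the fed libraries, Mrpl12 overlaps, and in Mrpl14 and Mrpl39 the starved libraries lie below, with starved library 2 the lowest.

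Mrpl14, Mrpl39 and Mrps15 fell. Mrpl14 lies at the subunit interface, where assembly factors hold the large subunit apart in human mitochondria. It had 37.1, 11.4, 33.8, 22.9 and 34.5 CPM in starved libraries 1 to 5, against 54.9, 37.2, 43.4, 44.9 and 47.8 CPM in fed libraries. Starved libraries 2 and 4 were the lowest, and the highest starved library, 37.1 CPM, was next to the lowest fed library, 37.2 CPM. The log2 fold change of −0.71 ± 0.26 (adjusted p = 0.0494, edgeR) was −0.36 without libraries 2 and 4 (adjusted p = 0.0273, edgeR). Its call was lost without starved library 4 or any 1 fed library, with values of −0.77 to −0.62, and also with DESeq2 size factors (−0.69) and without a low-count filter (−0.70). The gene overlaps Tmem63b on the opposite strand.

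Mrpl39, a protein related to threonyl-tRNA synthetase, had 31.8, 17.0, 30.2, 25.9 and 33.6 CPM in starved libraries 1 to 5, against 35.5, 37.8, 43.0, 37.8 and 36.5 CPM in fed libraries. All starved libraries were below the fed range (log2 fold change −0.46 ± 0.16, adjusted p = 0.0417, edgeR; −0.24 without libraries 2 and 4, still called). The call was lost without starved library 3 or 4 or any 1 fed library (−0.49 to −0.41), and without a low-count filter (−0.46). Mrps15 had 17.2, 11.1, 17.5, 14.8 and 16.5 CPM in starved libraries, against 21.1, 20.5, 21.0, 19.4 and 17.2 CPM in fed libraries. Fed library 5 lay inside the starved range (−0.36 ± 0.13, adjusted p = 0.0473, edgeR). Its call was lost without libraries 2 and 4 (−0.20), and without starved library 4 or 5 or fed library 1, 2, 3 or 4 (−0.39 to −0.33). It was also lost with DESeq2 size factors (−0.34), without a low-count filter (−0.36) and with a replicate block (−0.38), and was kept in 9 of 19 alternative settings. Mrpl49, singled out here after its values were seen, was not called with all libraries although its groups did not overlap. It had 31.2, 10.6, 31.4, 19.2 and 26.8 CPM in starved libraries and 34.5 to 37.0 CPM in fed libraries (adjusted p = 0.0659, edgeR), and its exons overlap Syvn1 on the opposite strand.

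Starved library 2 was the low library of its group for most members. Of the 76 genes, 50 (65.8%) had their lowest starved value in library 2, beside 35.8% of all tested genes. Library 2 held the highest starved value in 5 members (6.58%) beside 32.8% of all tested genes. The summed level of the members was 3075, 2294, 3044, 2700 and 2703 CPM in starved libraries 1 to 5, against 2758, 2336, 2548, 2441 and 2511 CPM in fed libraries 1 to 5. Library 2 was below every fed library, libraries 1 and 3 were above every fed library, and libraries 4 and 5 lay within the fed range. Within the small-subunit proteins added by mitochondria all 5 starved sums were above the fed sums, at 324 to 376 CPM in starved against 259 to 286 CPM in fed libraries. These sums include Mrps36, with means of 13.4 CPM in starved and 11.9 CPM in fed liver.

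**Figure D3:**
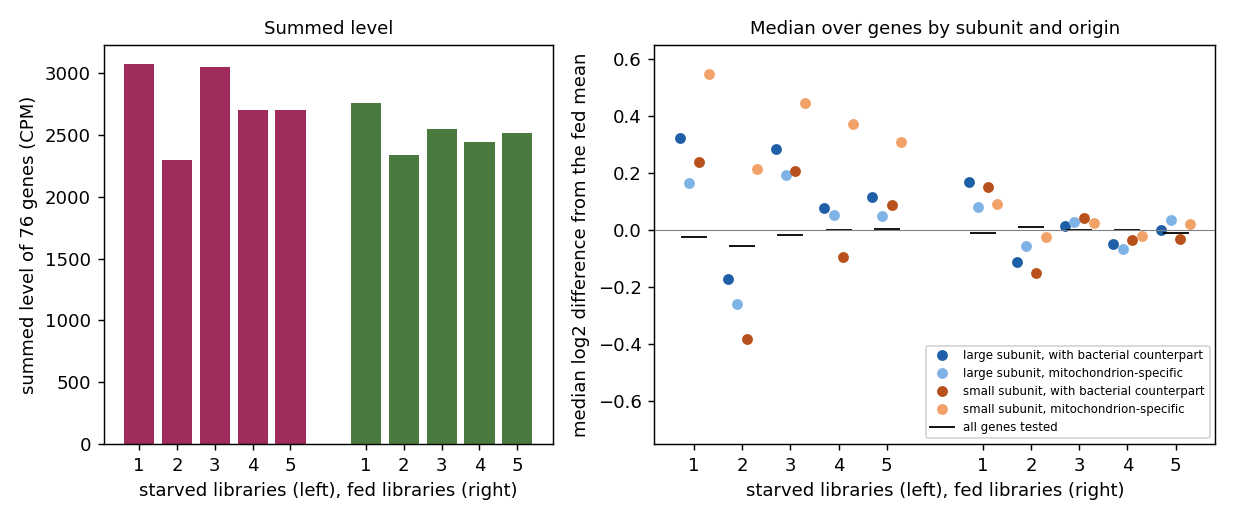
Left, the summed level of the 76 genes in CPM per library. Right, the median log2 difference from the fed mean in each library for the 4 classes of protein (coloured points) and for all tested genes (black dashes), starved libraries 1 to 5 on the left and fed libraries 1 to 5 on the right of each panel. Starved library 2 has the lowest sum, 2294 CPM, and the class of small-subunit proteins added by mitochondria is highest in each starved library.

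Without starved libraries 2 and 4, 34 members rose and 3 fell, where 20.2% of all tested genes rose and 20.7% fell. The 3 falls were not the same genes as with 10 libraries. Mrpl14 and Mrpl39 kept their call, Mrps15 lost it and Mrpl49 gained one (−0.25, adjusted p = 0.0294, edgeR). Together these are 48.7% of the members, beside 40.9% of all tested genes. The median log2 fold change was then 0.23 over the members, beside 0.0005 over all genes. All 18 genes that rose with 10 libraries also rose with these 8, which are part of the same 10. Libraries 2 and 4 were set aside after their values were seen. Library 2 held the lowest starved value in 50 members, whose starved mean is therefore higher without it. Leaving out starved library 2 alone gave 30 rises and 4 falls. Gains were spread over the classes. Of large-subunit proteins with a bacterial counterpart 16 of 30 rose without libraries 2 and 4, in place of 7, and of those added by mitochondria 6 of 19 in place of 3. Of the small-subunit proteins 5 of 16 with a bacterial counterpart rose in place of 2, and 7 of 11 of the others in place of 6. Mrpl15, one of the most abundant members in CPM and chosen here after its values were seen, had 113, 52.8, 117, 91.4 and 113 CPM in starved libraries 1 to 5, against 88.8, 62.1, 68.5, 90.4 and 85.5 CPM in fed libraries. It was not called with all libraries (log2 fold change 0.30, adjusted p = 0.254, edgeR) and rose by 0.55 without libraries 2 and 4. The median spread of a member, as the SD in percent of the mean, was 17.0% among starved and 8.59% among fed libraries, beside 23.3% and 11.8% for all tested genes.

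**Figure D4:**
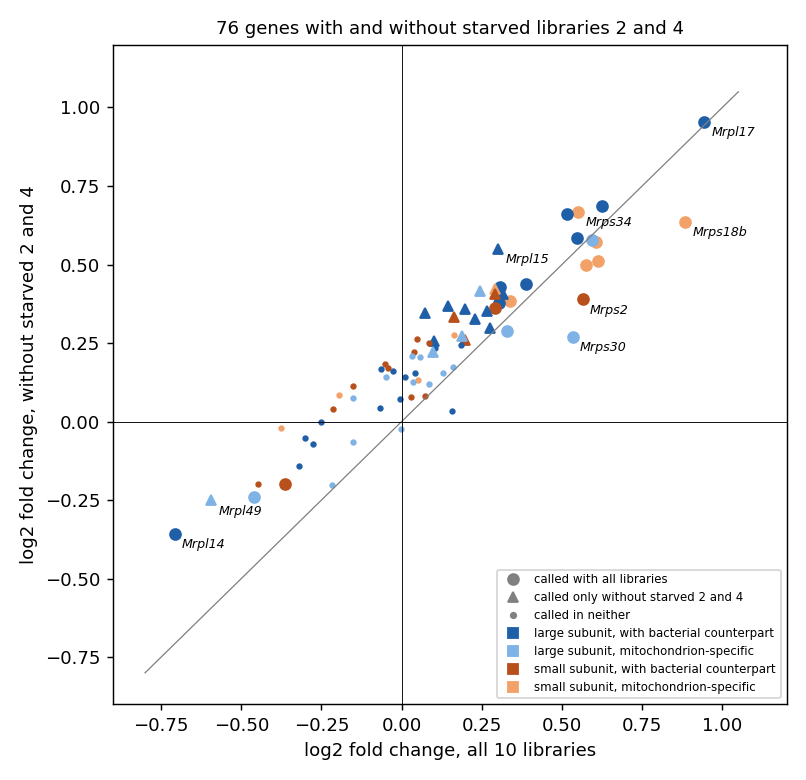
Log2 fold change, starved over fed liver, of the 76 genes with all 10 libraries (horizontal) and without starved libraries 2 and 4 (vertical). The grey line marks equal values, circles were called with all libraries, triangles only without libraries 2 and 4, and colours give the class of protein. Most points lie above the line, whereas Mrps18b, Mrps2 and Mrps30 lie below it.

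Mrps18a, Mrps18b and Mrps18c are 3 paralogs of a single bacterial protein, of which Mrps18c holds the bacterial position, Mrps18b sits elsewhere in the small subunit and Mrps18a in the large subunit. Mrps18a had 24.2, 23.1, 22.7, 25.7 and 25.5 CPM in starved libraries 1 to 5, against 23.8, 21.8, 22.1, 19.3 and 21.5 CPM in fed libraries. Mrps18c had 42.4, 22.7, 44.2, 25.0 and 29.0 CPM in starved libraries, against 43.9, 32.8, 37.8, 30.9 and 35.9 CPM in fed libraries. Neither passed the test (Mrps18a 0.16, 95% interval −0.04 to 0.36; Mrps18c −0.15, −0.57 to 0.27). Starved libraries 2 and 4, the highest for Mrps18b, were the lowest for Mrps18c. Exons of Mrps18c overlap Gm43511 on the same strand. The log2 ratio of Mrps18b to Mrps18a was 0.67 ± 0.35 in starved and −0.02 ± 0.12 in fed libraries (SD, n = 5 each; exact two-sided permutation p = 0.00794, the smallest this design allows; adjusted p = 0.0119 over 3 pairs). It was higher in 5 of 5 starved libraries than in any fed library. The ratio of Mrps18b to Mrps18c was 0.29 ± 0.72 in starved and −0.76 ± 0.20 in fed libraries (exact permutation p = 0.00794, adjusted p = 0.0119). The ratio of Mrps18a to Mrps18c was −0.38 ± 0.47 and −0.73 ± 0.11, starved before fed, and did not pass (exact permutation p = 0.159). Without starved libraries 2 and 4 the differences for Mrps18b were 0.46 and 0.54 (exact permutation p = 0.0179 each, the smallest that 3 against 5 libraries allow; adjusted p = 0.0268). These ratios reuse values in which Mrps18b had already risen without overlap, so their tests add no separate support for that rise.

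Levels between genes were compared as CPM per kb of 1 annotated transcript per gene, the longest principal one in GENCODE, and shift with the transcript chosen. Mrpl52 and Mrps21 had the highest levels per kb by the mean of the groups. In starved liver alone Mrpl20 came first, at 84.3 CPM per kb, and Mrps21 was below Mrpl33, Mrpl42 and Mrpl30. Mrpl52, of the large subunit, stood at 81.5 CPM per kb in starved and 79.6 in fed liver, and its count level did not pass the test (log2 fold change 0.03, 95% interval −0.22 to 0.29). Mrps21 stood at 65.2 CPM per kb in starved and 88.9 in fed liver. Its log2 fold change of −0.45 was not called (adjusted p = 0.0584, edgeR), but was called without starved library 1 or 3 (−0.54 to −0.53), with library totals alone (−0.59), with limma-voom (−0.48), with a replicate block (−0.49) and with length and GC trends removed (−0.48). Mrps25 and Mrpl19 were lowest in both groups, at 1.60 and 3.43 CPM per kb in starved and 2.08 and 2.83 in fed liver, and their annotated transcripts are long (6073 and 5000 bases). Neither was called, but Mrpl19 was without starved library 2 (0.36), without starved libraries 2 and 4, with DESeq2's Wald test and with length and GC trends removed. Mrpl17, the gene with the largest rise, has an annotated transcript of 7300 bases and reached 14.1 CPM per kb in starved and 7.33 in fed liver, in the lower part of the order. Mrpl46 and Mrps11, whose exons overlap on opposite strands, had log2 fold changes of 0.06 and −0.04, and neither was called.

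**Figure D5:**
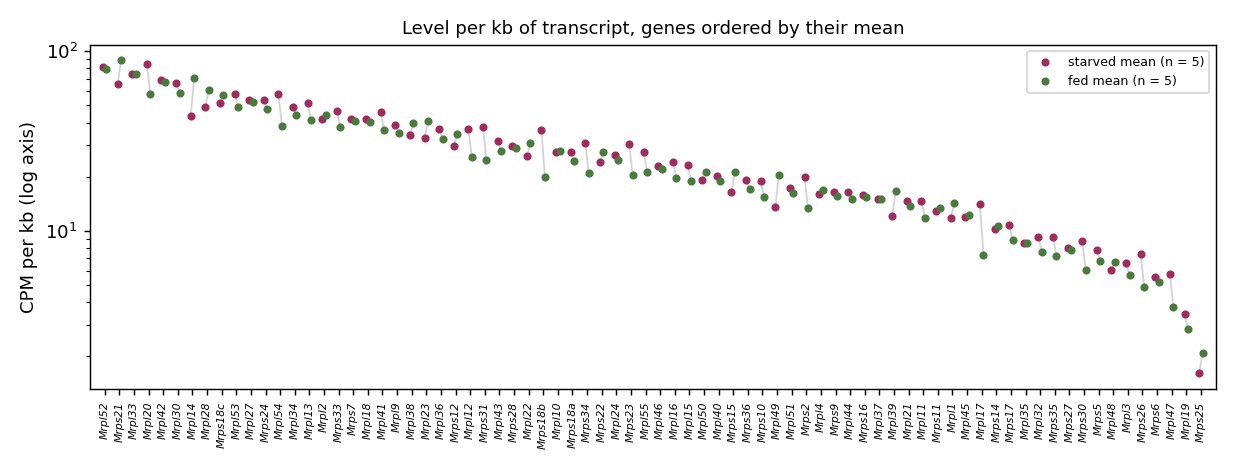
Mean level in CPM per kb of transcript (log axis) of the 76 genes in starved (purple, left of each pair) and fed liver (green, right), ordered by the mean of the groups, n = 5 libraries each. Levels run from about those of Mrpl52 and Mrps21 down to those of Mrps25, and the steps are widest at the low end, where Mrpl47, Mrpl19 and Mrps25 have means over both groups of 4.75, 3.13 and 1.84 CPM per kb.

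Related genes were taken from lists drawn up by function. Their counts stand beside the 18.6% of all tested genes that rose and the 20.0% that fell, or 20.2% and 20.7% without starved libraries 2 and 4. Of 7 mitochondrial ribosomal proteins with other symbols, 2 rose and 0 fell (median 0.04), and leaving out starved libraries 2 and 4 gave 3 rises and 0 falls (median 0.20). Ptcd3, which receives the message at the small subunit, had 75.5, 65.9, 72.4, 70.4 and 70.0 CPM in starved libraries 1 to 5, against 55.5, 54.1, 56.7, 57.4 and 51.9 CPM in fed libraries, with no overlap (log2 fold change 0.36 ± 0.08, adjusted p = 0.00495, edgeR). Mrp63, of the large subunit, averaged 41.6 ± 4.14 CPM in starved and 30.2 ± 4.29 CPM in fed liver (SD, n = 5; 0.46 ± 0.12). Among 12 translation factors of mitochondria 1 rose, the GTPase Guf1 (29.5 ± 2.79 CPM in starved and 23.1 ± 1.85 CPM in fed liver, log2 fold change 0.35), and 6 rose without starved libraries 2 and 4. None fell with either set of libraries, and the list's median was 0.04 with all libraries and 0.26 without those 2.

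Of 25 factors for ribosome assembly and rRNA modification, 8 rose and 2 fell (median 0.06), and leaving out starved libraries 2 and 4 gave 7 rises and 2 falls (median 0.16). Mpv17l2, which helps assemble the large subunit, averaged 16.7 ± 2.89 CPM in starved and 9.98 ± 0.482 CPM in fed liver (0.74 ± 0.13, adjusted p = 0.00131, edgeR). Ddx28, an RNA helicase, had 17.5, 59.0, 22.1, 67.0 and 21.7 CPM in starved libraries 1 to 5 and 13.8 to 17.3 CPM in fed libraries. Starved libraries 2 and 4 carried most of its rise, which was 1.21 with and 0.35 without them, and the gene overlaps Dus2 on the opposite strand. Nsun4, a methyltransferase of the small-subunit rRNA, fell to 14.3 ± 3.52 CPM in starved liver, against 24.2 ± 1.59 CPM in fed liver (−0.76 ± 0.17, adjusted p = 0.00434, edgeR). Mettl17, another assembly factor, fell as well (5.48 ± 1.37 CPM in starved and 8.78 ± 0.989 CPM in fed liver; −0.68, and −0.43 without libraries 2 and 4). Exons of Mettl17 overlap Slc39a2 on the same strand, and those of Mpv17l2 overlap Rab3a on the other.

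Of 21 genes for transcription and RNA processing in mitochondria, 6 rose and 0 fell (median 0.33), and leaving out starved libraries 2 and 4 gave 9 rises and 0 falls (median 0.20). Hsd17b10, a dehydrogenase of isoleucine breakdown that is also a subunit of the mitochondrial RNase P, had 486, 285, 438, 398 and 223 CPM in starved libraries 1 to 5, against 122, 103, 96.1, 103 and 103 CPM in fed libraries. Its lowest starved library was above its highest fed library (1.79 ± 0.20, adjusted p = 8.89e-05, edgeR). Fastk, a mitochondrial RNA-binding protein, had 28.4, 62.1, 29.8, 52.5 and 27.4 CPM in starved and 17.0 to 19.3 CPM in fed libraries (1.13, and 0.66 without libraries 2 and 4). Of 10 regulators, 5 rose and 1 fell with all libraries, and leaving out starved libraries 2 and 4 gave 3 rises and 1 fall. The median was 0.80 with all libraries and 0.23 without those 2. They included Ppargc1a, a coactivator of NRF1 (log2 fold change 2.18 with all libraries and 2.20 without 2 and 4), and Myc (3.38 and 1.64). Myc had 4.59, 51.3, 4.33, 18.2 and 6.14 CPM in starved libraries 1 to 5. Starved libraries 2 and 4 were thus its highest, and its fed level was low, at 0.994 to 2.43 CPM. Gabpb2, a GABP subunit, fell (−0.46 ± 0.16, adjusted p = 0.0379, edgeR). Other GABP subunits, named here outside the rule for named genes, had positive fold changes. Gabpb1 rose (0.67 ± 0.24, adjusted p = 0.0441, edgeR) but was not called without starved libraries 2 and 4 (0.29). Gabpa was not called (0.26 ± 0.10, adjusted p = 0.0514, edgeR). Nrf1 had 11.2 to 21.1 CPM in starved and 10.1 to 12.3 CPM in fed libraries and did not pass the test (adjusted p = 0.0614, edgeR). The genes of the mitochondrial genome, which hold the rRNAs of this ribosome, were not analysed here.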

How the data were processed

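The RNA-seq comprised 5 starved and 5 fed libraries of mouse liver. Per the labels' protocols the TruSeq kit keeps strand. CASAVA 1.8.2, TopHat2 2.0.0 and Bowtie2 2.0.0, HTSeq, edgeR 3.6.4 and the build mm10 appear in the submitters' processing notes. No source used here gives the HTSeq version, annotation or strand setting, so genes that overlap another gene are uncertain. Besides the overlaps given above, exons of Mrpl19, Mrps25, Guf1, Gabpa, Gabpb1 and Gabpb2 overlap a gene on the opposite strand. Those of Mrpl33 and Ptcd3 overlap a gene on the same strand, and those of Fastk overlap genes on both. The authors deposited raw counts, 1 whole number per gene symbol and library. Rows that tally unassigned reads stayed out. Of all tallied reads, those aligned to more than 1 place were 38.6% to 48.4% in starved and 46.4% to 48.1% in fed libraries, and those in no gene 17.1% to 24.7% and 16.0% to 21.3%.

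From the counts, filterByExpr and the quasi-likelihood test of edgeR 4.0.16 (R 4.3.3) compared starved with fed livers after scaling by the trimmed mean of M values. SE is the log2 fold change over the root of F, and 95% intervals use the same fit. Per-library medians use log2(CPM + 0.5). Alternatives were run with edgeR, limma 3.58.1 (voom) and DESeq2 1.42.0. The fit was tested on simulated data. Annotation is GENCODE M21 of GRCm38, which is mm10, and matched 98.4% of rows.

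Genes named are the 12 members with the largest rises and up to 12 with the largest falls among those called, the 2 highest and 2 lowest per kb, the Mrps18 paralogs and Mrpl12, and up to 2 called genes in each direction per related list. Members, lists and tests were chosen with earlier results of these data known.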

Additional observations from a re-analysis of the deposited data

Results flagged for a closer look

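In 1 of 68 groups of 5 values examined, a library lay far from the rest. Hsd17b10, the RNase P subunit and dehydrogenase, had 122 CPM in fed library 1, where the next highest fed library had 103 CPM. Its starved libraries were all higher, so the direction of its change does not rest on that library. Chance alone marks about 1 in 20 such groups.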

How the results depend on the processing

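Across 19 alternatives, 9 of the 21 member calls were kept in every one, all of them rises (Mrpl17, Mrps18b, Mrps31, Mrps26, Mrpl54, Mrps23, Mrps2, Mrps34 and Mrpl20). The number of rises, 18 in the fit as reported, was 9 with library totals alone, 34 without starved libraries 2 and 4, and 12 to 30 when 1 library was left out, with 30 reached without starved library 2. It stayed within 1.5 times under the other alternatives, such as 26 without length and GC trends. The number of falls, 3, was 1 with DESeq2 size factors, 7 with library totals alone, 5 with limma-voom, 0 without a low-count filter, 5 without length and GC trends, and 0 to 6 when 1 library was left out, with 6 reached without starved library 1. It was 0 without starved library 4 or fed library 1, 2, 3 or 4, and 1 without fed library 5. Over all genes 2379 rose, and 1490 with library totals alone. Over the related lists 22 genes rose and 3 fell, and 13 and 7 with library totals alone. The cause of these moves was not tested. The members' median ran from −0.05 with library totals alone to 0.23 without starved libraries 2 and 4.

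The labels speak of 5 pairs of mice without tying a pair to a replicate number. Correlations of same-numbered libraries' deviations ran from −0.05 to 0.20. Each library was set against the 5 libraries of the other group, and 3 of 10 correlated best with their own number. Whether this exceeds what unrelated numbers would give was not tested. A fit with a replicate block gave 14 rises and 3 falls among the members. It lost the rises of Mrpl41, Mrpl16, Mrpl11 and Mrps17 and the fall of Mrps15, and called a fall of Mrps21. Depth limits the least expressed member, with 58 reads in its lowest library.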

Other observations

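Fed libraries also differed among themselves in the members as a body. Fed library 1 held the highest fed value in 43 of the 76 genes (56.6%), beside 23.5% of all tested genes, and fed library 2 the lowest in 38 (50.0%), beside 22.9%. The median log2 difference of the members from the fed mean was 0.13 in fed library 1 and −0.08 in fed library 2. It was 0.24 and 0.26 in starved libraries 1 and 3, and −0.17 in starved library 2. The share of all tallied reads that fell in no gene was 21.3% in fed library 1 and 16.0% in fed library 2, and 21.3%, 18.9% and 24.7% in starved libraries 1, 2 and 3. In starved libraries 4 and 5 the share was 18.6% and 17.1%, with members' medians of 0.09 and 0.11. In fed libraries 3, 4 and 5 the share was 16.9%, 16.3% and 20.3%, with members' medians of 0.03, −0.04 and −0.003. Whether these shares bear on the members' levels was not tested.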
